A study of Mus musculus with 12 samples.

Results

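The 9 laminin chain genes Lama1, Lama2, Lama3, Lama4, Lama5, Lamb1, Lamb2, Lamb3 and Lamc1 were followed through the life of the muscle stem cell in mouse limb muscle. The members were listed by name, and all 9 were found among 19938 genes measured, each by 1 probe set that carried its symbol alone. Satellite cells, which lie between the muscle fibre and its basement membrane, had been sorted by green fluorescence from heterozygous Pax7-ZsGreen C57BL/6 mice, whose reporter marks cells with Pax7 activity. Every group carried this reporter, so no group without it was compared, and the sorting gates were set by age and against wild type SV129 mice without the reporter. The fetal cells (E17.5) were taken from forelimb and hindlimb of 4 pooled mice. Hindlimb alone was used for the adolescent cells (postnatal day 21, 6 pooled mice), the adult cells (2 to 3 months, 8 pooled mice) and the aged cells (over 1 year, 8 pooled mice). In every comparison with fetal cells, stage and limb source therefore cannot be told apart. Each stage was read on 3 arrays, 12 in all.

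Laminins are large cross-shaped proteins of the basement membrane. Each is built from an α, a β and a γ chain that wind together in the cell before secretion. The end of the α chain holds the domains that bind integrins and dystroglycan on the cell surface, so the choice of α chain sets which receptors a laminin engages, while the short arms of the chains link laminins into a sheet. In muscle the α2 chain, encoded by Lama2, is the main α chain around mature fibres, and its loss causes a congenital muscular dystrophy in people and in mice. The α4 and α5 chains are found around fibres during development and later at vessels, nerves and synapses. The α3 and β3 chains are known from epithelia such as skin, where they anchor the epidermis.

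Between the stages 6 of the 9 chains differed and 3 did not pass the test, and 5 to 8 chains passed it under the alternative settings given below. Aged cells had 24.8-fold more Lama3 signal than fetal cells, a fold that may be too small because the fetal signal lay near background, and 5.56-fold, 3.39-fold and 12.3-fold less of Lama4, Lama5 and Lamb1. Lamb2 rose once, 2.06-fold in adolescent against fetal cells, Lamc1 changed by less than that in all comparisons, and Lama1, Lama2 and Lamb3 did not pass limma's F-test across the 4 stages at an adjusted p under 0.05. Of all genes 41.6% passed that test. Values are deposited log2 intensities, on which a difference of 1 is a 2-fold change, and rose or fell is used only for an adjusted p under 0.05 over all genes. Because probe sets differ in brightness, levels are compared between samples and not between chains.

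The arrays of a stage were not equally close. Replicates 2 and 3 correlated at 0.996 to 0.999 within each stage, against 0.972 to 0.993 for either with replicate 1, and whether replicates came from separate pools of animals is not stated. Each call on a laminin chain was therefore also made with replicates 2 and 3 averaged into 1, an alternative added after their closeness was seen. Calls on single genes outside the 9 chains, such as partners, receptors and markers, were not checked in this way. With that averaging 323 genes passed in adult against adolescent cells and 2 in aged against adult cells, against 3941 and 697 without it. Adult replicate 1 stood apart in cell cycle genes, with Mki67, a marker of cycling cells, at 9.28 against 6.58 and 6.44 on adult replicates 2 and 3. The mean of 1210 probe sets for olfactory and vomeronasal receptors, taken as a measure of background signal, was 4.47, 4.50 and 4.31 on adult replicates 2 and 3 and aged replicate 1, and 3.79 to 3.91 elsewhere. The 8 satellite cell markers, Pax7 among them, averaged 9.35 to 9.37 on fetal arrays and 10.67 to 11.03 on the others. All 8 rose in adolescent against fetal cells, where 10.1% of all genes rose. In adult against adolescent cells 4 rose and 0 fell, where 4.56% of all genes rose and 15.2% fell. Pax7 itself had means of 10.45, 10.96, 11.60 and 11.63 in fetal, adolescent, adult and aged cells, and lay between 10.4 and 11.7 on all 12 arrays.

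Promoter sequences are shown for a chain that rose after birth and for a pair that fell, since these moved in opposite directions. RefSeq's table for GRCm38.p6 held promoter windows, from 250 bases before to 50 after a start site, for 5 of the 9 chains. The bases printed are those in front of the gene's outermost annotated start, read 5′ to 3′ on the strand of the gene, and capitals mark matches to GGGCGG or its complement CCGCCC, the GC box.
Lamb2, rose after birth, chr9:108479612-108479846, plus strand: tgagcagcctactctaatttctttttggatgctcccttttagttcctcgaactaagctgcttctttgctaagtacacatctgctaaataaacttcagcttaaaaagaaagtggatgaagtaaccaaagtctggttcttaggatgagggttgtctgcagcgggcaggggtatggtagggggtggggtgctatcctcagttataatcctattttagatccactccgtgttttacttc
Lamb1, fell after birth, chr12:31265043-31265145, plus strand: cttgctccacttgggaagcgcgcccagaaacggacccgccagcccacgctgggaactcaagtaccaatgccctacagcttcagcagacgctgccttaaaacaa
Lama5, fell after birth, chr2:180225905-180226109, minus strand: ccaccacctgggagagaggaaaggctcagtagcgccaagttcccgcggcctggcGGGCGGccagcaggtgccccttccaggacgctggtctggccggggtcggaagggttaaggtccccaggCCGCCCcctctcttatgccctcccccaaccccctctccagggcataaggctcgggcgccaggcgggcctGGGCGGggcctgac

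The windows differed in base composition. The full 300-base window of Lamb2 held 4 CpG pairs and 44.0% G and C. That of Lamb1 held 18 CpG pairs and 63.7% G and C, and that of Lama5 24 CpG pairs and 72.7% G and C, while the median over 32851 windows was 7 CpG pairs. On both strands GGGCGG matched 0 times in the window of Lamb2, 2 times in that of Lamb1 and 4 times in that of Lama5, and 35.7% of all windows held a match. CAGCTG, an E-box of the kind bound by MyoD, and TATAAA, the TATA box, matched in none of these windows, against 16.3% and 13.6% of all windows. Chains that did not pass also had few CpG pairs: the window of Lama2 held 1, with 1 match to GGGCGG, and both windows of Lamb3 held 2 and 5, with 0 matches to GGGCGG and, in the first, 1 match to CAGCTG.

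**Figure D1:**
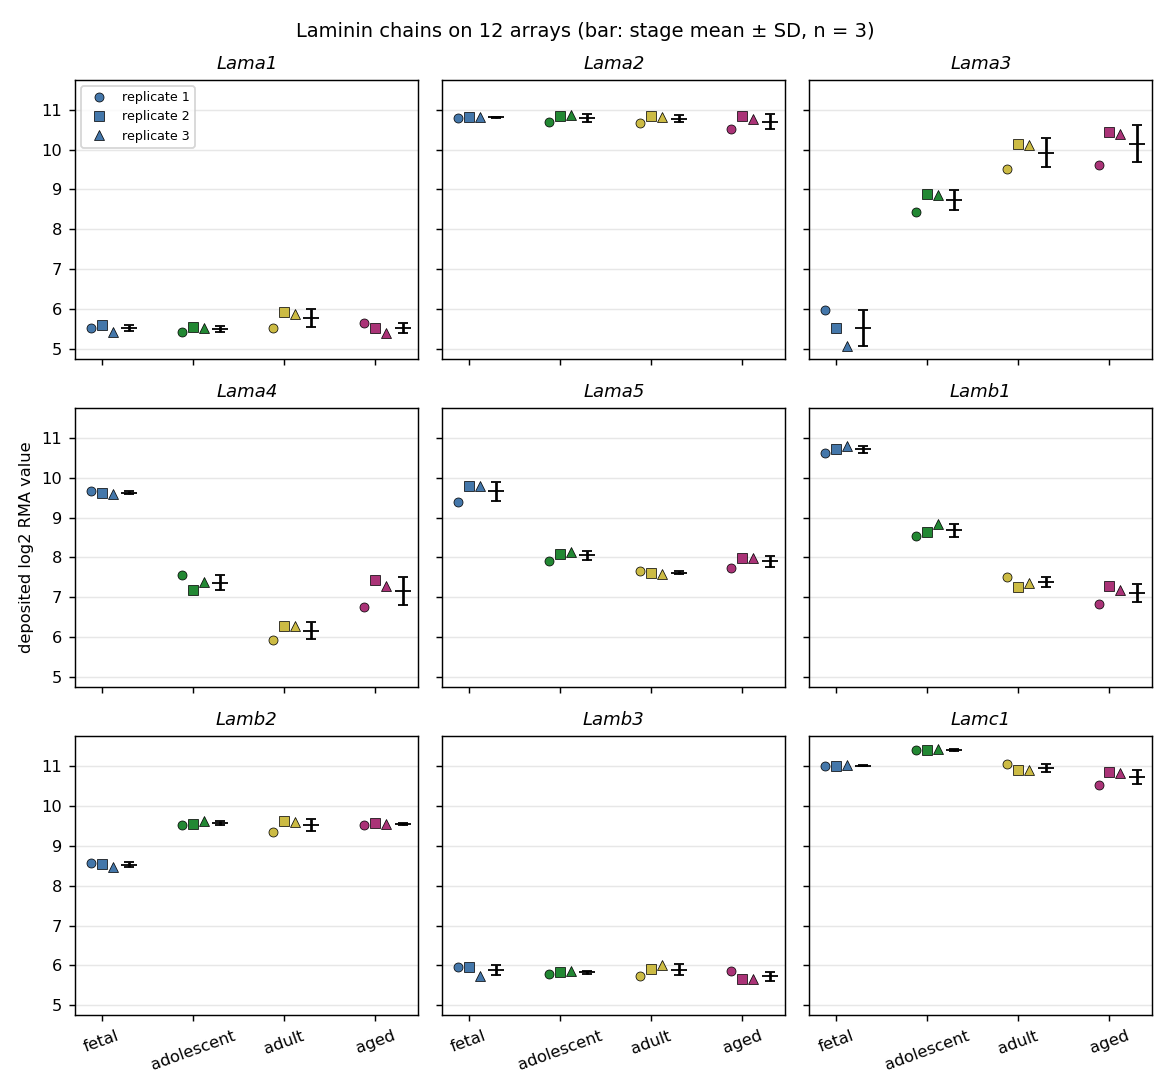
Deposited log2 values of the 9 laminin chains (vertical axis) on the 3 arrays of each stage (horizontal axis), with the symbol giving the replicate number and the bar the stage mean ± SD (n = 3). Lama3 lies between 5.06 and 5.98 on fetal arrays and between 9.61 and 10.45 on aged arrays, Lama4, Lama5 and Lamb1 are highest on fetal arrays, and Lama2 stays between 10.51 and 10.87 on all 12.

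Counted over the chains, 3 rose (Lama3, Lamb2, Lamc1) and 3 fell (Lama4, Lama5, Lamb1) in adolescent against fetal cells, where 10.1% of all genes rose and 8.68% fell. In adult against adolescent cells 1 rose (Lama3) and 4 fell (Lama4, Lama5, Lamb1, Lamc1), where 4.56% of all genes rose and 15.2% fell. The balance of all genes in that comparison depended on scaling: 909 rose and 3032 fell on the deposited scale, 1988 rose and 1980 fell after repeated quantile normalization, and 2233 rose and 2076 fell with each array centred on its median, which moved the median of all genes by 0.107. In aged against adult cells 1 chain rose, Lama4, and 0 fell, where 3.28% of all genes rose and 0.216% fell. There 654 genes rose and 43 fell, against 621 and 147 after repeated quantile normalization, which added a fall of Lamb1. Adult against fetal cells gave 2 rises (Lama3, Lamb2) and 3 falls (Lama4, Lama5, Lamb1), where 19.1% of all genes rose and 23.4% fell, shares close to 2 and 3 of 9 chains. Aged against fetal cells gave the same 5 chains with the same signs, where 16.4% of all genes rose and 19.4% fell, and the comparisons share arrays. In aged against adolescent cells Lama3 rose and Lamb1 and Lamc1 fell, where 8.08% of all genes rose and 11.5% fell. That balance also turned, with 1611 rises and 2288 falls on the deposited scale and 2303 and 2145 after repeated quantile normalization. It turned as well in adult against fetal cells (3806 rises and 4659 falls, against 4301 and 3938 after quantile normalization) and in adolescent against fetal cells (2008 and 1731, against 1688 and 2170 with arrays centred). Over the 6 comparisons the median difference of the 9 chains lay between -0.16 and -0.02, and that of all genes between -0.01 and 0.09. In sorted bulk samples fewer cells of a type and less RNA per cell cannot be told apart.

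The α chain Lama3 had the largest difference between stages of the 9 chains. It read 5.98, 5.52 and 5.06 on the fetal arrays, 8.44, 8.89 and 8.87 on the adolescent arrays, 9.51, 10.14 and 10.13 on the adult arrays and 9.61, 10.45 and 10.39 on the aged arrays. The fetal, adolescent and adult arrays did not overlap, while the adult and aged arrays did. Lama3 was 9.27-fold higher in adolescent than in fetal cells (log2 difference 3.21 ± 0.27, SE pooled over the stages, n = 3 each, as for all later differences, adjusted p = 2.57e-06). It rose again by 1.19 ± 0.27 in adult against adolescent cells (adjusted p = 0.00928), a call not held with replicates 2 and 3 averaged (adjusted p = 0.141). The last step, aged against adult, was 0.22 ± 0.27 and did not pass. Over the whole span Lama3 was 24.8-fold higher in aged than in fetal cells (4.63 ± 0.27, adjusted p = 4.24e-08), and 1.42 ± 0.27 higher in aged than in adolescent cells (adjusted p = 0.00247, and 0.0563 with replicates 2 and 3 averaged). The fetal values lay above 98.4%, 95.7% and 92.1% of the receptor probe sets on their arrays, near the top of the background, so a fold against fetal cells may be too small.

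The chain with which α3 is joined in skin did not follow it. Lamb3 read 5.95, 5.96 and 5.74 on fetal arrays, 5.79, 5.82 and 5.86 on adolescent arrays, 5.74, 5.91 and 6.01 on adult arrays and 5.84, 5.66 and 5.66 on aged arrays. The arrays of all stages overlapped, and the values lay above 92.4% to 98.3% of the receptor probe sets. The F-test did not pass (adjusted p = 0.462), and aged cells differed from fetal and from adult cells by -0.16 ± 0.11 each. Keratinocyte markers were also followed, since skin lies next to limb muscle. Their mean over 8 genes was 6.62 on fetal replicate 1 and 5.45 to 5.83 on the other 11 arrays. Of the 8 markers, 1 rose and 1 fell in adolescent against fetal cells, where 10.1% of all genes rose and 8.68% fell. In adult against adolescent cells 1 rose and 0 fell, where 4.56% of all genes rose and 15.2% fell. The median differences of the 8 markers were -0.30 and 0.26 in these comparisons. The fall was that of Krt1, a keratin (-1.36 ± 0.17, adjusted p = 6.26e-05). Both rises were those of Trp63, the epithelial factor p63 (0.52 ± 0.14, adjusted p = 0.0205, and 0.44 ± 0.14, adjusted p = 0.0448), which were also the steps at which Lama3 rose. Krt5, a basal keratin, read 8.15 on fetal replicate 1, 5.97 and 5.74 on the other fetal arrays, and 5.20 to 5.63 on all later arrays. The part of keratinocytes in the Lama3 differences was not tested.

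The chain Lama4, found in vessels and peripheral nerve as well as in developing muscle, took the opposite course and then turned. It read 9.67, 9.62 and 9.61 on fetal arrays, 7.55, 7.19 and 7.37 on adolescent arrays, 5.92, 6.27 and 6.29 on adult arrays, and 6.76, 7.43 and 7.29 on aged arrays. No array of one stage overlapped another stage except between adolescent and aged cells. On adult arrays Lama4 lay above 98.3%, 96.4% and 95.9% of the receptor probe sets, again near background. A fold of another stage against adult cells may therefore be too small. Lama4 was 4.80-fold lower in adolescent than in fetal cells (-2.26 ± 0.17, adjusted p = 8.26e-07) and fell further in adult cells, to a level 11.1-fold below fetal cells (-3.47 ± 0.17, adjusted p = 1.02e-08). The step of adult against adolescent cells was -1.21 ± 0.17 (adjusted p = 5.14e-04). Aged cells were 2.00-fold above adult cells (1.00 ± 0.17, adjusted p = 0.00621), the only chain of the 9 to pass in that comparison. This rise was not called when only the aged and adult arrays were fitted (adjusted p = 0.0818) or with replicates 2 and 3 averaged (adjusted p = 0.295). Aged and adolescent cells differed by -0.21 ± 0.17 and did not pass, so the order of levels was fetal, then adolescent and aged not told apart, then adult.

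Lama5, the α chain of many embryonic and vascular basement membranes, fell after birth and changed little later. It read 9.39, 9.80 and 9.81 on fetal arrays, 7.92, 8.10 and 8.13 on adolescent arrays, 7.66, 7.60 and 7.60 on adult arrays, and 7.75, 7.98 and 7.98 on aged arrays. The fetal arrays were all above the rest, and aged arrays lay above adult ones without overlap. Lama5 was 3.06-fold lower in adolescent than in fetal cells (-1.61 ± 0.13, adjusted p = 1.27e-06) and 4.13-fold lower in adult than in fetal cells (-2.05 ± 0.13, adjusted p = 8.27e-08). A smaller fall of -0.43 ± 0.13 in adult against adolescent cells passed (adjusted p = 0.0300), but not after repeated quantile normalization (adjusted p = 0.348), with each array centred on its median (0.0811), with all probe sets adjusted together (0.0507), with replicates 2 and 3 averaged (0.372), or without adolescent replicate 2 or 3 (0.0941 and 0.109) or adult replicate 2 or 3 (0.0978 and 0.0968). The difference of aged and adult cells was 0.28 ± 0.13 and did not pass (adjusted p = 0.223).

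The α chain of mature muscle, Lama2, did not pass in any comparison. It read 10.80, 10.82 and 10.82 on fetal arrays, 10.69, 10.85 and 10.87 on adolescent arrays, 10.68, 10.84 and 10.81 on adult arrays, and 10.51, 10.85 and 10.77 on aged arrays. All 4 stages overlapped. Aged minus fetal cells gave -0.11, with a 95% interval of -0.34 to 0.12, and the F-test gave an adjusted p of 0.782. Lama1, the α chain of the earliest embryonic basement membranes, read 5.43 to 5.59 on fetal arrays, 5.41 to 5.53 on adolescent arrays, 5.51, 5.92 and 5.87 on adult arrays, and 5.39 to 5.63 on aged arrays. The pair of high Lama1 values stood on adult replicates 2 and 3, the arrays with raised background, and over the 12 arrays Lama1 lay above 91.4% to 96.6% of the receptor probe sets. Lama1 did not pass the F-test (adjusted p = 0.184), but without adult replicate 1 it passed in adult against adolescent cells (0.40, adjusted p = 0.00489), in adult against fetal cells (0.38, adjusted p = 0.00468) and in aged against adult cells (-0.38, adjusted p = 0.0120).

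Of the β chains, Lamb1, which is widespread in embryonic and adult basement membranes, fell at the first and the second step after the fetal stage. It read 10.62, 10.74 and 10.80 on fetal arrays, 8.54, 8.65 and 8.85 on adolescent arrays, 7.51, 7.27 and 7.36 on adult arrays, and 6.84, 7.28 and 7.17 on aged arrays. Fetal, adolescent and adult arrays were fully separated, and adult and aged arrays overlapped. Lamb1 was 4.10-fold lower in adolescent than in fetal cells (-2.04 ± 0.13, adjusted p = 2.28e-07) and 2.47-fold lower in adult than in adolescent cells (-1.30 ± 0.13, adjusted p = 9.39e-05). Both calls held under every alternative tried. The step of aged against adult cells, -0.28 ± 0.13, did not pass (adjusted p = 0.240, and 0.0436 after repeated quantile normalization). In aged against fetal cells it was 12.3-fold lower (-3.62 ± 0.13, adjusted p = 6.46e-10).

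Lamb2, the β chain concentrated at the neuromuscular synapse and in the kidney filter, went the other way in a single step. It read 8.57, 8.55 and 8.46 on fetal arrays, 9.54, 9.55 and 9.62 on adolescent arrays, 9.36, 9.62 and 9.59 on adult arrays, and 9.53, 9.58 and 9.55 on aged arrays. All 9 later arrays were above all 3 fetal arrays. Lamb2 was 2.06-fold higher in adolescent than in fetal cells (1.04 ± 0.09, adjusted p = 5.08e-06). Adult and aged cells stood 0.99 ± 0.09 and 1.03 ± 0.09 above fetal cells. The differences among the later stages did not pass: adult minus adolescent was -0.05 ± 0.09 and aged minus adult 0.03 ± 0.09, and the sign of both depended on the scaling of the arrays.

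The γ chain Lamc1, a subunit of most laminins, peaked at postnatal day 21 with small differences. It read 11.00, 11.02 and 11.04 on fetal arrays, 11.41, 11.40 and 11.44 on adolescent arrays, 11.07, 10.91 and 10.90 on adult arrays, and 10.53, 10.86 and 10.83 on aged arrays. Adolescent arrays were above all others, and aged arrays below all others. Lamc1 was 1.32-fold higher in adolescent than in fetal cells (0.40 ± 0.10, adjusted p = 0.0152) and fell by 0.45 ± 0.10 in adult against adolescent cells (adjusted p = 0.00907). With replicates 2 and 3 averaged these steps gave adjusted p values of 0.230 and 0.254. The first step was also not called without fetal replicate 2 (0.0508) or adolescent replicate 2 or 3 (0.0502 and 0.0620). Aged cells were below adolescent cells (-0.68 ± 0.10, adjusted p = 4.99e-04), and the difference of aged and fetal cells fell just short (-0.28 ± 0.10, adjusted p = 0.0501) but passed under 9 of 23 alternatives, among them repeated quantile normalization (0.0162), array centring (0.0358), the filter at 6 (0.0326), array weights (0.0171) and fits without adult replicate 1 (0.0259) or aged replicate 2 (0.0396). Another γ chain outside the 9, Lamc3, read 7.74 to 7.79 on adolescent arrays against 6.21 to 6.54 on fetal arrays (1.40 ± 0.12, adjusted p = 3.24e-06), and fell by 0.40 ± 0.12 in adult against adolescent cells (adjusted p = 0.0363).

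**Figure D2:**
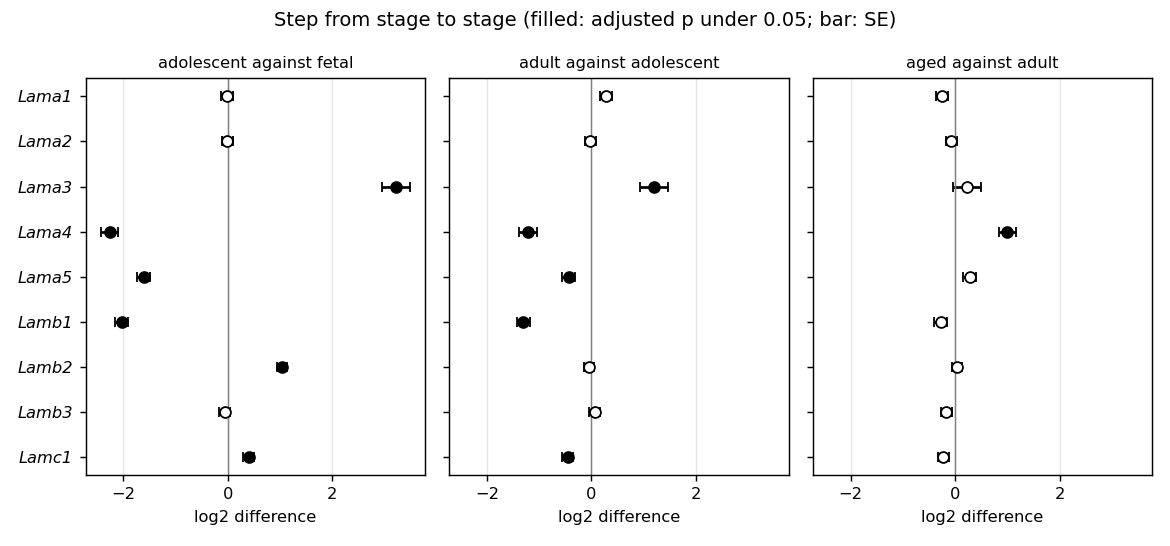
Log2 differences of each chain (horizontal axis) in adolescent against fetal, adult against adolescent and aged against adult cells, with bars for the SE of the fit and filled points for an adjusted p under 0.05. Filled points number 6, 5 and 1 of 9 chains, and Lama3 lies opposite to Lama4, Lama5 and Lamb1 for the first and second differences.

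Correlations over the 12 arrays, which fall into 4 stages, describe which chains had alike profiles. Lama5 correlated with Lama4 at 0.965 and with Lamb1 at 0.939, while Lama3 correlated with Lamb1 at -0.969 and with Lamb2 at 0.942. Among 12078 named genes whose highest stage mean was at least 6, the closest to Lamb1 were Nrk, a germinal centre kinase (r = 0.992), Spats2 (0.992) and Zdbf2 (0.991). For Lama4 they were Cpm, a membrane carboxypeptidase (0.992), Ccnd2, cyclin D2 (0.988), and Myof (0.985). For Lama5 they were Prkg1, a kinase activated by cyclic GMP (0.993), Lfng, a glycosyltransferase that modifies Notch (0.990), and Tmem164 (0.989). The nearest to Lama3 were Wdr81 (0.994), Pnpla7 (0.993) and Npr2, a natriuretic peptide receptor (0.993). Lamb2 was closest to Erfe, which encodes erythroferrone (0.992), Slc6a9, a glycine transporter (0.991), and Chrdl2, a BMP antagonist (0.991), and Lamc1 to Kansl2 (0.986), Ifngr2 (0.968) and Gfra1 (0.963).

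The partners of laminin in the basement membrane were measured as a list of 12 genes, of which 10 passed the F-test, against 41.6% of all genes. In adolescent against fetal cells 1 rose and 3 fell, where 10.1% of all genes rose and 8.68% fell. In adult against adolescent cells 0 rose and 6 fell, where 4.56% of all genes rose and 15.2% fell. In aged against adult cells 1 rose and 0 fell, where 3.28% of all genes rose and 0.216% fell. Nid1, or nidogen, which bridges laminin to collagen IV, fell by 0.55 ± 0.13 in adolescent against fetal cells (adjusted p = 0.00965) and by 0.83 ± 0.13 in adult against adolescent cells (adjusted p = 0.00114). Agrn, or agrin, which binds laminin and dystroglycan and clusters acetylcholine receptors, fell by 0.41 ± 0.10 in adolescent against fetal cells (adjusted p = 0.0125). Hspg2, the heparan sulphate proteoglycan perlecan, was the exception and rose by 0.66 ± 0.11 in the same comparison (adjusted p = 6.06e-04). Col18a1, the collagen that gives endostatin, fell most of the list in that comparison (-1.40 ± 0.13, adjusted p = 5.88e-06). In adult against adolescent cells Nid2, the second nidogen, fell by 0.83 ± 0.15 and Col15a1, another collagen of muscle basement membranes, by 0.93 ± 0.16. The main collagen IV chains Col4a1 and Col4a2 fell in adult against adolescent cells, by 0.64 ± 0.12 and 0.90 ± 0.11. Col4a6 was the partner that rose in aged against adult cells (0.66 ± 0.12, adjusted p = 0.0123).

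Of 9 laminin receptor genes 8 passed the F-test, against 41.6% of all genes. The shares of all genes that rose and fell were 10.1% and 8.68% in adolescent against fetal cells. They were 4.56% and 15.2% in adult against adolescent cells, and 3.28% and 0.216% in aged against adult cells. In adolescent against fetal cells 4 rose and 2 fell, with Itga3, the α3 integrin that binds α3 and α5 laminins, higher (1.01 ± 0.10, adjusted p = 8.07e-06) and Itga6, the α6 integrin, lower (-1.31 ± 0.13, adjusted p = 1.38e-05). Dag1, the precursor of dystroglycan, rose by 0.74 ± 0.08 (adjusted p = 1.80e-05), Itga7, the integrin of muscle that binds α2 laminin, by 0.47 ± 0.11 (adjusted p = 0.00919), and Itgb4, the integrin of hemidesmosomes, by 0.46 ± 0.13 (adjusted p = 0.0248). In adult against adolescent cells 0 rose and 3 fell, among them Itga1 (-1.26 ± 0.22) and Bcam (-0.53 ± 0.13), a surface receptor for α5 laminin. In aged against adult cells 3 rose and 0 fell, Itga1 (1.27 ± 0.22), Itga6 (0.81 ± 0.13) and Itgb4 (0.55 ± 0.13). Itgb1, the β partner of most laminin-binding integrins, did not pass the F-test.

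**Figure D3:**
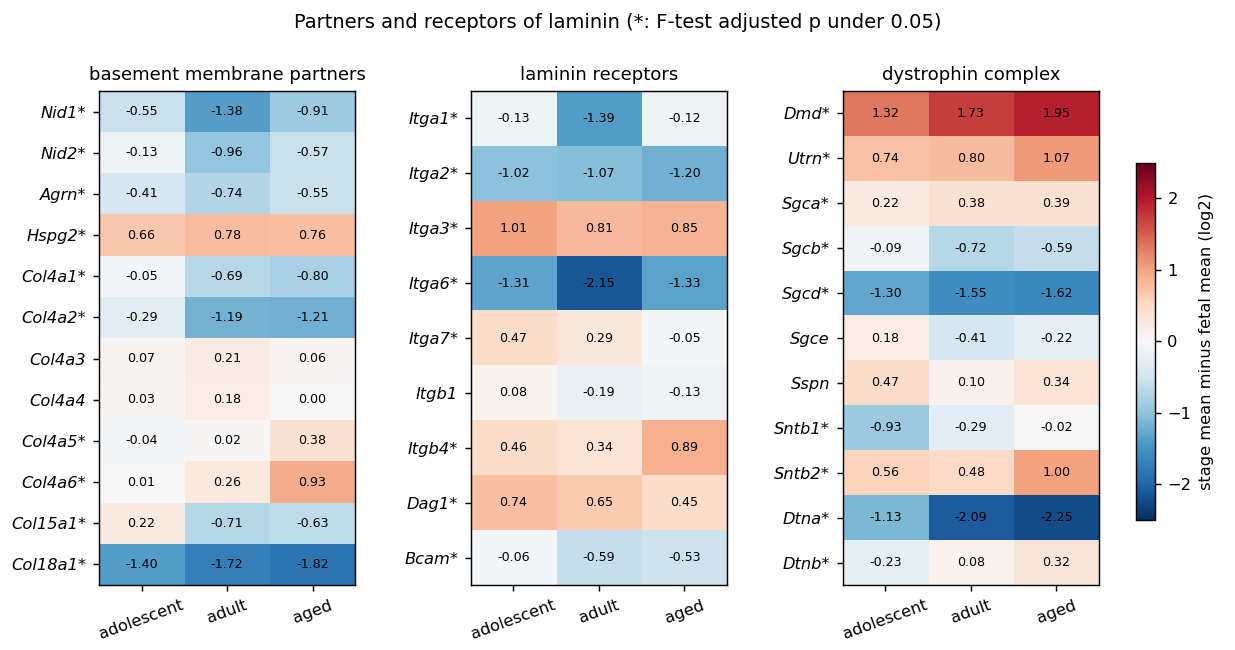
Stage mean minus fetal mean on the log2 scale (colour and printed value) for genes of the basement membrane, laminin receptors and the dystrophin complex (rows) in adolescent, adult and aged cells (columns), with a star for an F-test adjusted p under 0.05. Dmd is 1.32, 1.73 and 1.95 above fetal cells, while Dtna is at -1.13, -2.09 and -2.25 and Itga6 at -1.31, -2.15 and -1.33.

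The dystrophin complex connects dystroglycan, and through it laminin, to actin inside the cell. Of its 11 genes measured 9 passed the F-test, against 41.6% of all genes. In adolescent against fetal cells 3 rose and 3 fell, where 10.1% of all genes rose and 8.68% fell. Dmd, dystrophin, rose by 1.32 ± 0.17 (adjusted p = 1.05e-04) and its relative Utrn, utrophin, by 0.74 ± 0.14 (adjusted p = 0.00199). The syntrophins, adaptors of the complex, parted, with Sntb2 higher (0.56 ± 0.16, adjusted p = 0.0232) and Sntb1 lower (-0.93 ± 0.18, adjusted p = 0.00232). Sgcd, a sarcoglycan, fell by 1.30 ± 0.17 (adjusted p = 1.27e-04), and Dtna, α-dystrobrevin, by 1.13 ± 0.16 (adjusted p = 2.28e-04). Of 8 genes that add the sugar chain by which dystroglycan holds laminin, 0 passed in adolescent against fetal cells, where 10.1% of all genes rose and 8.68% fell. By the F-test 2 of 8 passed, Pomt1 and Pomgnt1, against 41.6% of all genes. Pomt1, which adds the first mannose, fell by 0.49 ± 0.11 in adult against adolescent cells (adjusted p = 0.00927). Of 5 netrins, secreted or membrane proteins with a laminin-like end, 3 passed the F-test, against 41.6% of all genes. In adult against adolescent cells 1 rose, Ntn5 (1.23 ± 0.10, adjusted p = 3.77e-05), and 0 fell, where 4.56% of all genes rose and 15.2% fell. In aged against adult cells 1 rose, Ntn1 (0.56 ± 0.08, adjusted p = 0.00323), and 0 fell, where 3.28% of all genes rose and 0.216% fell.

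Markers of other cells moved between the stages, and endothelial cells and pericytes make laminins themselves. For scale, 10.1% of all genes rose and 8.68% fell in adolescent against fetal cells. The shares were 4.56% and 15.2% in adult against adolescent cells, and 3.28% and 0.216% in aged against adult cells. In aged against adult cells, where Lama4 rose, 6 of 8 endothelial markers rose and 0 fell, with means of 8.88, 9.51 and 9.43 on aged arrays against 8.12, 7.97 and 8.01 on adult arrays. Within the stages the arrays did not run one way: aged replicate 1 was lowest both in this mean and in Lama4, while adult replicate 1 was highest in this mean and lowest in Lama4 (5.92 against 6.27 and 6.29). Adult replicates 2 and 3 had raised background, however. Lama4 lay above 98.3% of the receptor probe sets on adult replicate 1 and above 96.4% and 95.9% on adult replicates 2 and 3. The order of Lama4 on adult arrays therefore cannot be told apart from background. In adult against adolescent cells, where Lama4 and Lama5 fell, 5 of 8 endothelial markers fell and 0 rose. In adolescent against fetal cells the directions were opposite: 7 of 8 endothelial markers rose, with means of 9.23, 8.68 and 8.72 on adolescent arrays against 7.93, 7.02 and 6.98 on fetal arrays, while Lama4 and Lama5 fell. Pericyte and smooth muscle markers gave 6 rises and 1 fall of 8 in that comparison. Fibroblast markers gave 2 rises and 4 falls of 8, and their mean was 9.43 on fetal replicate 1 and 8.67 and 8.69 on the other fetal arrays, while Lamb1 read 10.62 on fetal replicate 1, the lowest of the fetal arrays. Markers of muscle fibres gave 5 rises and 0 falls of 8 in adolescent against fetal cells, where Lamb2 rose, and 0 rises and 3 falls in adult against adolescent cells. Schwann cell markers gave 2 rises and 0 falls of 6 in aged against adult cells, and macrophage markers 0 of 6 in either direction. The part of other cells in the chains' differences was not tested.

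Genes of dividing cells also differed between the stages. Of 7 cycling markers 7 fell in adult against adolescent cells and 0 rose, where 15.2% of all genes fell and 4.56% rose. Their mean was 7.92 on adult replicate 1 and 6.00 and 5.95 on adult replicates 2 and 3, against 9.47 to 9.62 on adolescent arrays. Within the stages the arrays did not run one way. Replicate 1 had the highest cycling mean of the adolescent, adult and aged arrays, while its Lamb1 was the highest of the adult arrays (7.51) and the lowest of the adolescent (8.54) and aged (6.84) arrays. Without adult replicate 1 Lamb1 differed by -1.37 in adult against adolescent cells (adjusted p = 1.36e-05). In adolescent against fetal cells, where Lamb1 fell 4.10-fold, 0 of 7 cycling markers rose and 1 fell. Of all genes 10.1% rose and 8.68% fell there. The cycling mean was still lower on every adolescent array than on the fetal arrays (9.99 to 10.34). The median difference of the 7 markers was -0.62. The SE of each marker was pooled over the stages, adult replicate 1 included, so few calls do not show equal levels. In aged against adult cells 0 cycling markers rose and 0 fell, with a median difference of -0.63, where 3.28% of all genes rose and 0.216% fell. The part of cycling cells in the Lamb1 differences was not tested.

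**Figure D4:**
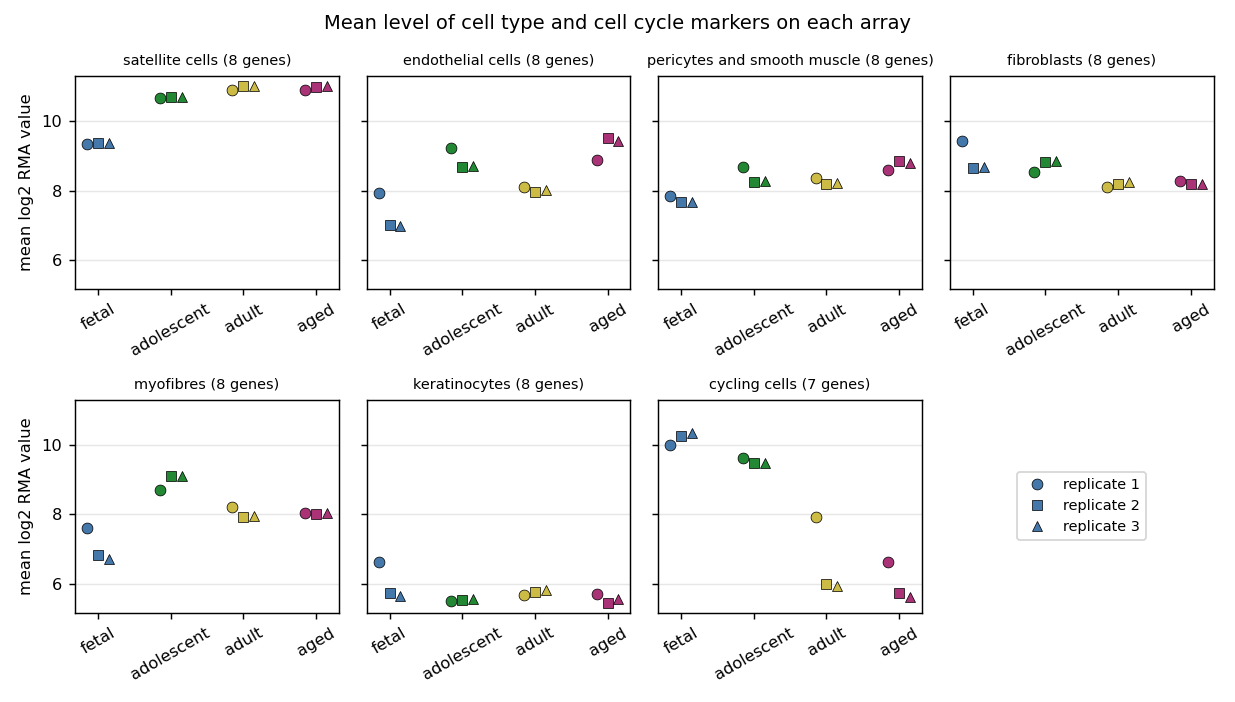
Mean log2 value of 7 marker lists (panels, with the number of genes) on each array (points, symbol by replicate number) at the 4 stages (horizontal axis). Satellite cell markers are 9.35 to 9.37 on fetal arrays and 10.67 to 11.03 later, endothelial markers are 8.88 to 9.51 on aged and 7.97 to 8.12 on adult arrays, and cycling markers part adult replicate 1 at 7.92 from adult replicates 2 and 3.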

How the data were processed

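RNA of sorted cells was hybridised to Affymetrix arrays with 1 sample per array. The deposited values are on a log2 scale and, per the submitters' processing notes, the authors made them with RMA in Affymetrix Expression Console 1.2.1.20, which corrects background, quantile-normalizes the arrays and summarises the probes of each probe set. The genome build is not given in the sources used here. Of 35556 probe sets, 21789 carried 1 symbol, 1621 several and 12146 none in the platform annotation, and the brightest 1-symbol probe set stood for each of 19938 genes. All 12 arrays entered 1 model in limma 3.58.1 (R 4.3.3), with 8 residual degrees of freedom. The tests were moderated tests of each pair of stages and an F-test across stages, with Benjamini-Hochberg adjustment over all 19938 genes and a threshold of 0.05. ± after a difference is the SE of that fit. The fit was tested on simulated data.

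Other normalizations, probe set rules, filters on dim values, variance models, array weights, a replicate number block and fits without each array were run as alternatives. Same-numbered arrays of adult and adolescent cells deviated together (correlations of 0.362, 0.317 and 0.239), and those of adolescent and fetal cells less so (0.176, 0.197 and 0.0293). Each other comparison held negative correlations. Arrays of unlike number could also deviate together, as adolescent replicate 2 and adult replicate 3 did (0.293). Nothing in the labels says that a number marks a shared animal or day. The separateness of replicates is not stated, so p-values measure the spread between these arrays, which may be technical, and their number limits the precision. The members and gene lists were chosen with earlier results of these data known. The text names the 9 chains, Lamc3, genes of the lists that pass the F-test, and the 3 genes closest to each chain that passes. Bases of promoter windows are from RefSeq. Itgb1, Mki67, Krt1, Krt5 and Trp63 were singled out after their values were seen.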

Additional observations from a re-analysis of the deposited data

How the results depend on the processing

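The falls of Lama4, Lama5 and Lamb1 and the rises of Lama3 and Lamb2 at each later stage against fetal cells, and the falls of Lama4 and Lamb1 in adult against adolescent cells, passed in the same direction under all 23 alternatives run. In the order of the 3 successive steps, then adult over fetal, aged over adolescent, aged over fetal and the F-test, 3739, 3941, 697, 8465, 3899, 7138 and 8293 genes passed. With the replicate block these were 3494, 3458, 518, 7683, 3685, 6831 and 7601, and no chain's call changed. With replicates 2 and 3 averaged they were 1472, 323, 2, 3532, 1122, 4140 and 3430, on fewer arrays. The chains that passed with that averaging numbered 5, 2, 0, 5, 2, 5 and 5 in the same order, against 6, 5, 1, 5, 3, 5 and 6 without it. Array weights, estimated gene by gene and lowest for adult replicate 1, gave 7749, 14481, 13659, 15013 and 9911 genes in the first 5 comparisons and 17994 by the F-test, with 4 chains in aged against adult cells. With only the 2 stages compared, 2145 genes passed in adult against adolescent cells, and 176 genes and 0 chains in aged against adult cells. With all probe sets adjusted together 445 passed in aged against adult cells, and repeated quantile normalization gave 2 chains there. Leaving out each array in turn gave 2690 to 5049, 1876 to 10757, 214 to 7844, 5923 to 12968, 2693 to 5466, 5893 to 8537 and 6665 to 14192 genes. It gave 1 to 2 chains in aged against adult cells and 6 to 7 chains by the F-test, where the other settings gave 5 to 8. The gene count moved by over 1.5 times without adult replicate 1 for the second and the third step, for adult over fetal cells and by the F-test. It did so in adult against adolescent cells also without each other array of these stages (1876 to 2464 genes), and in aged against adult cells without adult replicate 2 or 3 (269 and 289), aged replicate 1 (2214) or aged replicate 2 or 3 (214 and 216). The differences of Lamb2 among later stages changed sign. Adult against adolescent gave 0.16 after quantile normalization, 0.060 with arrays centred, 0.014 with weights and -0.097 to 0.035 leaving out arrays. Aged against adult gave -0.071, -0.022, -0.043 and -0.051 to 0.081 under the same settings, and aged against adolescent 0.091 and 0.037 under the first pair and -0.032 to 0.010 leaving out arrays. Lama1 passed in 6 of 138 fits and Lamb3 in 3 of 138, with array weights or, for Lama1, without adult replicate 1, and neither entered the fit with the filter at 6. Lama2 passed in 0 of 144, with differences of -0.18 to 0.08. The cause of these changes was not tested.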
